A study of Mus musculus with 36 samples.

Results

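The genes described here are 10 targets and modulators of canonical Wnt signalling. They are Axin2, Nkd1, Sp5 and Sp8, which the pathway switches on, Lef1 and Tcf7, which encode its DNA-binding factors, Dkk1, Sfrp1 and Sfrp5, which encode secreted antagonists, and Rspo3, which encodes a secreted agonist. They were chosen for their place in the pathway, with earlier results of these data known, and they are 10 of the 30869 gene symbols of the table. The array carries 16 probes for them. Of these, 12 probes of 9 members were detected on at least 1 array and tested, and the probe of Sfrp5 was detected on none of the 36 arrays.

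Regions were dissected by hand from wild-type mouse embryos of the MF1 strain while the body axis was growing, and pieces of the same region were pooled, between 6 and 74 per pool. Total RNA of each pool was amplified and hybridised to an Illumina bead array, on which the brightness of a probe measures the amount of its transcript. At E7.5 there were an anterior (A), a posterior (P) and a proximal posterior (PP) region. At E8.5, in embryos of 2-5 somites, there were 5 regions. RN is the rostral node, NSB the border between node and streak, CLE the epiblast lateral and caudal to it, and St1 and St5 are an anterior and a posterior level of the primitive streak. CNH is the chordoneural hinge of the tail bud, sampled daily between E9.5 (22-25 somites) and E13.5 (60-63 somites), and P-CNH is the tissue behind it, sampled on the first 3 of those days. There were 3 arrays for CLE, NSB, E11.5 CNH and E7.5 A, and 2 for each of the 12 remaining regions.

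The 36 arrays were run in 3 batches of 12. Batch 1 held RN, St1, St5, E10.5 CNH, E10.5 P-CNH and NSB replicates 1 and 2, and it shares a region with the other batches only through NSB replicate 3. Comparisons of a batch 1 region with a region of batches 2 and 3 therefore rest on that array, and 9 comparisons could not be made without it. That array had 13147 detected probes, whose median intensity was 2.75 times that of the undetected ones. Its Pearson r across probes was 0.921 and 0.923 with NSB replicates 1 and 2, which had 0.995 with each other. Fitted levels that set batch 1 regions beside others, and correlations of such levels, rest on it as well. Between 10814 probes (E13.5 CNH replicate 2) and 16256 probes (St1 replicate 2) were detected per array. The other arrays with fewer than 13000 were CLE replicate 1 with 11062, E11.5 P-CNH replicate 1 with 12280 and CLE replicate 2 with 12289. Replicate arrays of a region had a Pearson r across probes of between 0.858 (E13.5 CNH) and 0.997 (E9.5 CNH). Each p-value measures at most the spread between pools, because the labels name no separate litters or days. In batch 1 the replicates of a region had equal numbers of pieces (45 or 17) and r of between 0.994 and 0.995. E9.5 CNH had 0.997 with 6 and 10 pieces. The labels do not say whether the batch 1 replicates were pooled separately, so p-values from batch 1 alone may measure a narrower spread. The small number of arrays limits the precision of every value.

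Wnt ligands bind Frizzled receptors and Lrp co-receptors, which lets beta-catenin build up and join TCF and LEF factors on the DNA of target genes. Several of those targets encode inhibitors, so that the pathway holds itself in check. Their transcripts are therefore often used as a measure of the response, although each is also driven by other inputs.

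Levels are given as log2 intensity, in the order of the replicate numbers, and they compare arrays for the same probe only. Differences are log2 values from 1 limma model with region and batch, given with their standard error (SE), so that they can depart from the difference of the raw means. Where 1 of 2 arrays is left out, the remaining one is assumed to vary like the other groups. A probe was called when its p, adjusted by Benjamini and Hochberg over all 21712 tested probes, was 0.05 or less and its fold change 1.5 or more. If every array of a group was below detection, the fold is a lower bound. It sets the mean of the brighter group against the mean, over the dim arrays, of the higher of the probe's own value and the lowest detected signal of that array. All 9 tested members varied across the 16 regions in limma's F-test, against 35.6% of all tested probes.

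Markers of known tissues were read first as a check of the labels. The summed intensity of 4 anterior neural genes, mostly Otx2, was 7384, 6739 and 4333 in E7.5 A, 1221 and 1035 in P, and 165 and 145 in PP, although Six3 and Hesx1 were undetected on 2 of the 3 A arrays. Streak genes, mostly T, summed to 2296, 2534 and 1480 in A, against 15483 and 16604 in P and 19339 and 32140 in PP. Node and notochord genes lay between 5179 and 7760 in RN and NSB and between 345 and 787 in CLE, St1 and St5. In the tail bud they summed to 2434 and 2657 in E9.5 CNH and to 587 and 411 in E9.5 P-CNH. Each of these orders is the one that the region names call for.

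At E7.5 the comparisons ask whether the response is found on the streak side of the embryo, where Wnt3a was detected. In P against A, 4 of the 9 tested members were called higher and 1 lower, where 2.73% of all probes were called. The median member difference was 2.06, against -0.04 over all probes. In PP against A, 6 were higher and 1 was lower, where 6.15% of all probes were called, and the medians were 1.92 and -0.03. Between PP and P, 1 member was called and was lower in PP, beside 0.792% of all probes. These 3 comparisons hold 13 of the member calls out of 27 values. Both P arrays were in batch 2 and both PP arrays in batch 3, so PP against P is a comparison between batches that rests on the batch term. Of the A arrays, replicates 1 and 2 were in batch 2 and replicate 3 in batch 3, so PP shares a batch only with A replicate 3.

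At E8.5 the comparisons set the node, the border, the lateral epiblast and the streak against each other. Against RN, 1 of 9 members was higher in NSB, where 0.134% of all probes were called. For CLE against RN, limma called 0 members, with 3 at an unadjusted p under 0.05, where 1.43% of all probes were called. In St1 against RN, 1 member was higher, beside 2.24% of all probes. For St5 against RN, 1 was higher and 1 lower, beside 6.05% of all probes. Against NSB, limma called 0 members in CLE, with 2 at an unadjusted p under 0.05 and 2.4% of all probes called. For St1 against NSB it called 0, with 0 at an unadjusted p under 0.05 and 1.42% of all probes called. In St5 against NSB, 2 members were lower, beside 5.21% of all probes.

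Against CLE, limma called 0 members in St1, with 1 at an unadjusted p under 0.05 and 0.106% of all probes called. In St5 against CLE it called 0, with 2 at an unadjusted p under 0.05 and 1.48% of all probes called. In St5 against St1, 1 member was lower, beside 3.27% of all probes. The 10 comparisons of E8.5 thus hold 7 member calls out of 90 values. That count moved with the arrays that entered the fit. It was 23 without the 4 arrays under 13000 detected probes, a setting chosen after the data were seen that leaves CLE with 1 array, and the share of all probes called went from 2.37% to 6.30% with it. For St5 against RN the count went from 2 to 6, where the share of all probes went from 6.05% to 10.6%. In the 12 arrays of batch 1 fitted alone, the comparisons with both sides in that batch gave 26 member calls instead of 8, while all probes went from 3.22% to 9.93%. In St5 against RN 7 of the 9 members were then called, beside 16.3% of all probes. Members and the array as a whole thus both gained calls, and no gain particular to the members was tested.

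Between CNH and P-CNH, limma called 0 members at E9.5, with 1 at an unadjusted p under 0.05, where 0.17% of all probes were called. At E10.5 it called 0, with 0 at an unadjusted p under 0.05, beside 0.318% of all probes. For E11.5 the count was 0 in limma, with 1 at an unadjusted p under 0.05, beside 0.161% of all probes. The change of this difference between days gave 0 member calls in limma each time. It had 0 members at an unadjusted p under 0.05 and 0% of all probes called from E9.5 to E10.5. From E10.5 to E11.5 it had 1 such member and 0.00461% of all probes. From E9.5 to E11.5 it had 0 such members and 0.0276% of all probes.

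Along the stages, limma called 0 members in NSB against E7.5 P, with 4 at an unadjusted p under 0.05, where 3.07% of all probes were called. In E9.5 CNH against NSB, 1 member was higher, beside 5.04% of all probes. Between E9.5 and E10.5 CNH limma called 0, with 0 at an unadjusted p under 0.05 and 0.0737% of all probes called. Between E10.5 and E11.5 CNH it called 0, with 0 at an unadjusted p under 0.05 and 0.0829% of all probes called. From E11.5 to E12.5 CNH the call count was 0 in limma, with 1 at an unadjusted p under 0.05, beside 0.226% of all probes. In E13.5 against E12.5 CNH, 2 members were lower, where 9.33% of all probes were called. Without the 4 arrays under 13000 detected probes, these 6 comparisons gave 13 member calls instead of 3, beside 8.52% of all probes instead of 2.97%, but E13.5 CNH and E11.5 P-CNH then have a lone array each, with its spread taken from other groups. In E10.5 CNH against NSB, where both sides have arrays in batch 1, 1 member was higher, beside 7.14% of all probes. For St5 against E7.5 PP limma called 0 members, with 3 at an unadjusted p under 0.05 and 1.03% of all probes called.

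Axin2 encodes a scaffold of the complex that destroys beta-catenin, and its transcription is part of the negative feedback of the pathway. It read 9.47, 9.35 and 9.64 in E7.5 A, 11.28 and 11.71 in P and 11.40 and 12.36 in PP (probe ILMN_2896314). All 4 arrays of P and PP lay above the 3 of A, while P and PP overlapped. Axin2 rose by 2.06 (SE 0.30) from A to P, a 4.16-fold difference (adjusted p = 0.000109), and by 2.30 (SE 0.31) from A to PP, or 4.91-fold (adjusted p = 2.70e-05). Both calls held whichever array was left out.

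In RN, Axin2 read 10.63 and 10.90, in NSB 11.12, 11.13 and 11.80 and in CLE 11.33, 12.23 and 12.41. It read 11.42 and 11.49 in St1 and 11.38 and 11.59 in St5. The 2 RN arrays were the lowest of E8.5, and the other 4 regions overlapped. Its differences from RN of 0.69 in St1 (adjusted p = 0.752) and 0.72 in St5 (adjusted p = 0.321) passed only before adjustment. In the tail bud Axin2 read 10.92 and 10.88 in E9.5 CNH and 11.93 and 11.56 in E9.5 P-CNH. It was 10.54 and 10.65 in E10.5 CNH and 10.91 and 10.93 in E10.5 P-CNH. CNH lay under P-CNH without overlap on both days, yet the E9.5 difference of -0.77 (SE 0.33) was not called (adjusted p = 0.887). Later values of Axin2 were 10.74, 11.35 and 11.38 in E11.5 CNH and 11.38 and 11.52 in E11.5 P-CNH. It read 10.74 and 10.68 in E12.5 CNH and 10.94 and 10.31 in E13.5 CNH.

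Ordered by the mean over arrays, Axin2 was highest in CLE, followed by PP, and lowest in E7.5 A, preceded by E10.5 CNH. In 14 of the 15 pairs of neighbours in this order the arrays overlapped, and only E10.5 CNH was clear of E7.5 A. This order is of raw means, without the batch term. In fitted levels Axin2 was highest in St5 (11.89) and St1 (11.86), and E13.5 CNH (10.42) came just above E7.5 A (9.31).

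Nkd1 encodes a protein that binds Dishevelled and dampens the signal inside the cell. It read 7.36, 7.51 and 7.15 in E7.5 A, 9.35 and 9.48 in P and 9.47 and 9.33 in PP (probe ILMN_2696611). P and PP overlapped each other and lay above A on every array. Nkd1 rose by 2.14 (SE 0.28) from A to P, which is 4.41-fold (adjusted p = 2.61e-05). From A to PP it rose by 1.92 (SE 0.29), or 3.79-fold (adjusted p = 9.80e-05), and neither call was lost without any single array. A second probe of Nkd1 (ILMN_2916283) was detected on 12 arrays and did not vary across regions (adjusted p = 0.568).

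Nkd1 then read 9.37 and 9.33 in RN, 9.89, 9.90 and 10.56 in NSB and 9.25, 10.32 and 10.26 in CLE. Its values were 9.77 and 9.61 in St1 and 9.95 and 9.62 in St5. RN lay below NSB, St1 and St5, CLE had arrays below RN and among NSB, and no E8.5 comparison called Nkd1. In E9.5 CNH it read 10.04 and 10.17, and in E9.5 P-CNH 9.79 and 10.63. The E10.5 values were 10.54 and 10.38 in CNH and 10.01 and 10.18 in P-CNH. CNH and P-CNH overlapped at E9.5, and at E10.5 both CNH arrays were the higher ones, without a call. Nkd1 read 10.68, 11.00 and 11.01 in E11.5 CNH and 10.52 and 11.04 in E11.5 P-CNH. It was at 10.34 and 10.26 in E12.5 CNH and 11.24 and 10.64 in E13.5 CNH. The steps of -0.63 from E11.5 to E12.5 CNH (adjusted p = 0.558) and 0.64 from E12.5 to E13.5 CNH (adjusted p = 0.157) were not called, and neither was the 0.94 by which NSB exceeded E7.5 P (adjusted p = 0.234).

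The mean level of Nkd1 was highest in E13.5 CNH and next in E11.5 CNH, and lowest in E7.5 A and next in RN. Arrays overlapped in 12 of its 15 neighbour pairs. The separated ones were RN above E7.5 A, St1 above E7.5 P and E10.5 CNH above E12.5 CNH. The batch term turned parts of this order, since the fitted level of Nkd1 was highest in E10.5 CNH (10.84, against 10.76 in E13.5 CNH) and next to lowest in PP (9.11).

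Sp5 encodes a zinc-finger transcription factor and is a direct target of beta-catenin complexes. It read 10.47, 10.06 and 9.70 in E7.5 A, 12.52 and 11.75 in P and 12.69 and 12.46 in PP (probe ILMN_2641201). Each P and PP array was brighter than each A array. Sp5 rose by 2.10 (SE 0.31) from A to P, 4.27-fold (adjusted p = 0.000137), and by 2.41 (SE 0.33) from A to PP, 5.31-fold (adjusted p = 2.46e-05). No left-out array ended either call.

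At E8.5 the Sp5 probe read 13.17 and 13.20 in RN, 13.62, 13.68 and 13.52 in NSB and 13.22, 13.13 and 12.97 in CLE. It was 13.59 and 13.51 in St1 and 12.46 and 12.41 in St5. Both St5 arrays were the dimmest of this stage, and NSB and St1 were the brightest and overlapped. Sp5 fell by 1.21 (SE 0.33) on the log2 scale from NSB to St5, 2.32-fold (adjusted p = 0.0299). That Sp5 call ended without NSB replicate 1 (adjusted p = 0.159), NSB replicate 2 (0.197), St5 replicate 1 (0.156) or St5 replicate 2 (0.202), while the difference stayed between -1.24 and -1.18. In batch 1 alone the adjusted p of Sp5 in St5 against NSB was 7.17e-06. The Sp5 difference of -1.11 (SE 0.33) between St5 and St1 was not called (adjusted p = 0.0774), and it was called without either E13.5 CNH array (adjusted p = 0.00651).

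In the tail bud Sp5 read 12.62 and 12.57 in E9.5 CNH and 12.51 and 12.64 in E9.5 P-CNH. The E10.5 arrays gave Sp5 values of 13.34 and 13.54 in CNH and 13.28 and 13.30 in P-CNH. At E11.5 they were 13.11, 13.02 and 13.10 in CNH and 12.89 in P-CNH replicate 2, while P-CNH replicate 1, with a deposited intensity of 10765, lay above the 3 CNH arrays. CNH and P-CNH overlapped at E9.5 and E11.5 and were separate at E10.5 by less than the standard error of their difference. Sp5 read 12.84 and 12.99 in E12.5 CNH and 11.79 and 13.32 in E13.5 CNH. The 2 arrays of E13.5 lay on either side of those of E12.5. The excess of NSB over E7.5 P was 1.26 (adjusted p = 0.141). It was 1.496 and called without E13.5 CNH replicate 1 or 2 (adjusted p = 0.00914).

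Sp5 was highest in NSB and St1 and lowest in E7.5 A and P by mean level. Its neighbours overlapped in 11 of 15 pairs, and E7.5 P above A was among the 4 that did not. Fitted levels of Sp5 had the same 2 regions at either end.

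Sp8, a relative of Sp5, encodes a transcription factor of growing limb and tail tissue. It read 8.08, 7.55 and 7.80 in E7.5 A, 8.87 and 8.02 in P and 9.41 and 9.44 in PP (probe ILMN_2658312). PP lay above A and P, which overlapped. Sp8 rose by 1.28 (SE 0.27) from A to PP, 2.43-fold (adjusted p = 0.00389), a call that ended at 0.99 without E7.5 A replicate 3 (adjusted p = 0.0610). The difference of Sp8 between P and A was 0.80 (SE 0.26, adjusted p = 0.134).

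Sp8 read 10.10 and 10.25 in RN, 10.46, 10.30 and 9.97 in NSB and 9.74, 10.13 and 9.63 in CLE. In the streak it read 10.53 and 10.69 in St1 and 9.34 and 9.16 in St5. St1 was clear of every other E8.5 region at the top, and St5 at the bottom. Sp8 fell by 1.36 (SE 0.28) from St1 to St5, 2.56-fold (adjusted p = 0.00441), and by 1.14 (SE 0.28) from NSB to St5, 2.20-fold (adjusted p = 0.0133). The call against St1 ended at -1.28 without St1 replicate 2 (adjusted p = 0.0761) and at -1.27 without St5 replicate 2 (adjusted p = 0.0843). For Sp8 the call against NSB ended without either of NSB replicates 1 and 2 or either St5 array, with adjusted p between 0.0603 and 0.158 and differences between -1.22 and -1.05. In batch 1 alone its adjusted p was 2.85e-05. Against RN the Sp8 difference of St5 was -0.92 (adjusted p = 0.0528), just outside the limit.

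From E9.5 the Sp8 values were 9.65 and 9.73 in CNH and 9.95 and 10.42 in P-CNH. A day later Sp8 read 10.87 and 10.94 in CNH and 11.03 and 11.02 in P-CNH. P-CNH lay above CNH on both days without a call. At E11.5 Sp8 read 9.76, 9.83 and 10.74 in CNH and 9.72 and 10.20 in P-CNH. It ended with 9.64 and 10.496 in E12.5 CNH and 9.42 and 10.16 in E13.5 CNH. E11.5 CNH overlapped both E11.5 P-CNH and E12.5 CNH, and E12.5 CNH overlapped E13.5 CNH. NSB exceeded E7.5 P by 1.03 (adjusted p = 0.157), and by 1.45 with a call without E7.5 P replicate 1 (adjusted p = 0.0441).

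Of all members Sp8 had the fewest overlapping neighbours, 9 of 15 pairs. It was highest in E10.5 P-CNH and next in E10.5 CNH, and lowest in E7.5 A and next in P. In fitted levels of Sp8 St5 (8.81) lay between those 2 instead of above P (8.91).

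**Figure D1:**
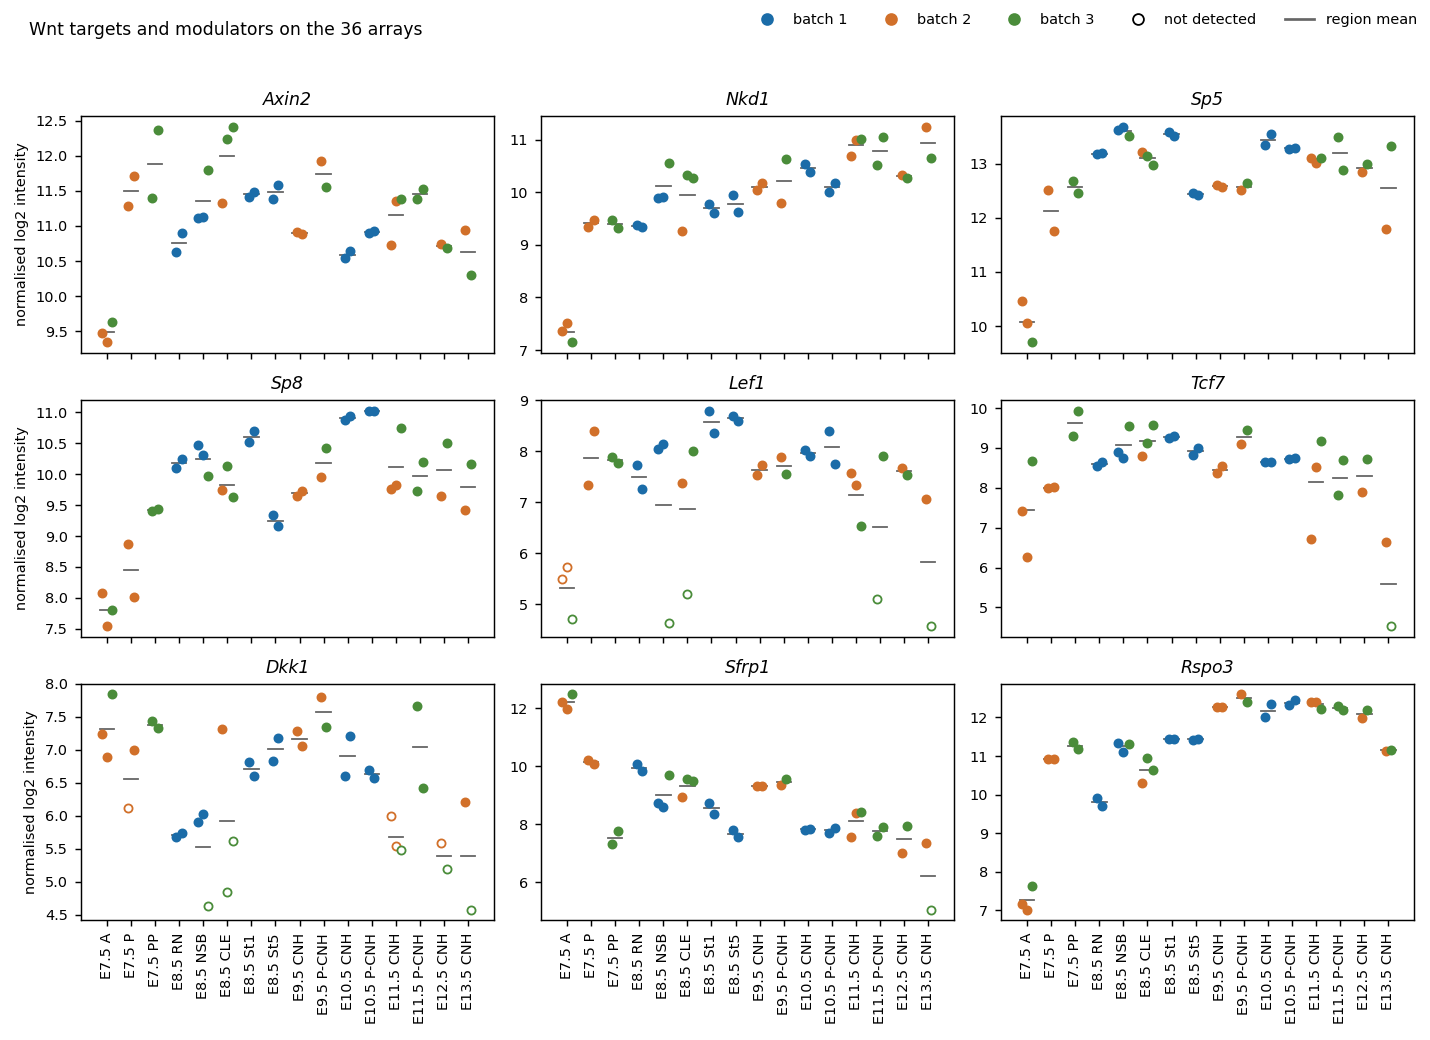
Each panel plots the log2 intensity of 1 of the 9 tested members on every array, by region, with colours for the 3 batches, hollow points for arrays on which the probe was not detected and a grey line for the mean of a region. The 3 E7.5 A arrays of Axin2, at 9.35 to 9.64, sit below all others, and those of Sfrp1, at 11.97 to 12.47, above all others.

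Lef1 encodes an HMG-box factor that carries beta-catenin to DNA. Of its 4 probes only ILMN_2648475 was detected, on 29 arrays. Lef1 read 5.50, 5.72 and 4.71 (none detected) in E7.5 A, 7.34 and 8.40 in P and 7.88 and 7.76 in PP. Every P and PP array was detected and above A. From A to PP Lef1 rose by 3.13 (SE 0.70), at least 3.41-fold (adjusted p = 0.00574), and the call ended at 3.06 without PP replicate 1 (adjusted p = 0.0698). The difference between P and A was 2.25 (SE 0.66), at least 3.52-fold, and was not called (adjusted p = 0.0796). It was called without CLE replicate 2 (2.32, adjusted p = 0.0282) or 3 (2.18, adjusted p = 0.0355), without either E11.5 P-CNH array (2.25, adjusted p = 0.0189) and without either E13.5 CNH array (2.34, adjusted p = 0.0441). In batch 2 alone it was 2.26 and called (adjusted p = 0.0261).

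Lef1 read 7.73 and 7.26 in RN, 8.04, 8.13 and 4.64 (not detected) in NSB and 7.39, 5.20 (not detected) and 8.01 in CLE. The streak gave 8.80 and 8.35 in St1 and 8.70 and 8.60 in St5. St1 and St5 overlapped and held the brightest arrays, and both NSB and CLE had an array below detection. The sign of Lef1 in CLE depended on the batch term. The fitted difference of CLE from RN was 2.52 (adjusted p = 0.672), and with no batch term it was -0.63. The difference from NSB was 1.92 (adjusted p = 0.459), against -0.07 with no batch term. St1 and St5 exceeded RN by 1.08 and 1.16 without a call, and both were called in batch 1 alone (adjusted p = 0.00820 and 0.00264).

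Tail bud values of Lef1 were 7.54 and 7.73 in E9.5 CNH and 7.88 and 7.55 in E9.5 P-CNH. At E10.5 they were 8.03 and 7.90 in CNH and 8.39 and 7.76 in P-CNH. CNH and P-CNH overlapped on both days. Lef1 read 7.56, 7.33 and 6.53 in E11.5 CNH and 5.10 (not detected) and 7.91 in E11.5 P-CNH. The last values were 7.68 and 7.54 in E12.5 CNH and 7.06 and 4.57 (not detected) in E13.5 CNH. E13.5 lay below E12.5 by 1.79 without a call (adjusted p = 0.105). The call was made without either E11.5 P-CNH array (-1.79, adjusted p = 0.0385) and without E13.5 CNH replicate 1 (-2.71), which leaves a lone array on which Lef1 was undetected, so that the size is not measured. Without replicate 2 instead, which also leaves E13.5 CNH with a lone array, the difference was -0.88. In batch 2 alone, which sets a lone array of E13.5 CNH against a lone array of E12.5 CNH, it was -0.62. With detected probes as a covariate it was -0.18 (adjusted p = 0.911). In its order of mean levels, with St5 and St1 at the top and E7.5 A and E13.5 CNH at the bottom, all 15 neighbour pairs overlapped. The batch term changes it, with fitted levels of Lef1 highest in PP (9.28) and E9.5 P-CNH (8.71), lowest in RN (5.50), and at 6.66 in St5 and 6.58 in St1, so no order of its regions can be given.

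Tcf7 encodes a second factor of the same family. It read 7.42, 6.26 and 8.67 in E7.5 A, 7.99 and 8.02 in P and 9.30 and 9.93 in PP (probe ILMN_1242308, detected on 35 arrays). PP was above A and P on every array, and A spanned P. The Tcf7 difference of 1.76 (SE 0.62) between PP and A was not called (adjusted p = 0.113). It was called without E7.5 A replicate 3 (2.44, adjusted p = 0.0396) and without E11.5 CNH replicate 1 (1.88, adjusted p = 0.0444). A second probe (ILMN_2717975), which followed the first across arrays with r = 0.90, passed for the same comparison with 1.59 (adjusted p = 0.0168).

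Among the E8.5 regions Tcf7 read 8.54 and 8.64 in RN, 8.91, 8.75 and 9.56 in NSB and 8.80, 9.12 and 9.58 in CLE. It read 9.25 and 9.30 in St1 and 8.83 and 8.99 in St5. RN held the 2 lowest arrays, the other regions lay between 8.75 and 9.58, and nothing was called. Tcf7 read 8.36 and 8.53 in E9.5 CNH and 9.10 and 9.44 in E9.5 P-CNH. The E10.5 values were 8.65 and 8.64 in CNH and 8.71 and 8.75 in P-CNH. P-CNH was the higher of the pair on both days without a call. Tcf7 in E11.5 CNH was 6.72, 8.53 and 9.16, and in E11.5 P-CNH 7.81 and 8.70. It reached 7.89 and 8.72 in E12.5 CNH and 6.64 and 4.54 (not detected) in E13.5 CNH. Both E13.5 arrays were below those of E12.5, and Tcf7 fell by 2.72 (SE 0.63, adjusted p = 0.0124). Its size is not measured, because Tcf7 was detected on 1 of the 2 E13.5 arrays. The drop rests on E13.5 CNH replicate 2, where it was undetected and which had the fewest detected probes, since without it the difference was -1.13 (adjusted p = 0.348). Without E12.5 CNH replicate 2 it was -2.59 (adjusted p = 0.174). The second probe of Tcf7 differed by only -1.26 and was not called (adjusted p = 0.0564), and 5 of 14 other settings lost the call of the first.

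Tcf7 was highest in PP, followed by St1, and lowest in E13.5 CNH, preceded by E7.5 A. In 10 of its 15 neighbour pairs the arrays overlapped, and the lowest PP array stood above the highest St1 array by less than 0.01. With the batch term the order of PP and St1 turned, and the fitted level of Tcf7 was 9.55 in St1, 9.19 in St5 and 9.17 in PP.

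**Figure D2:**
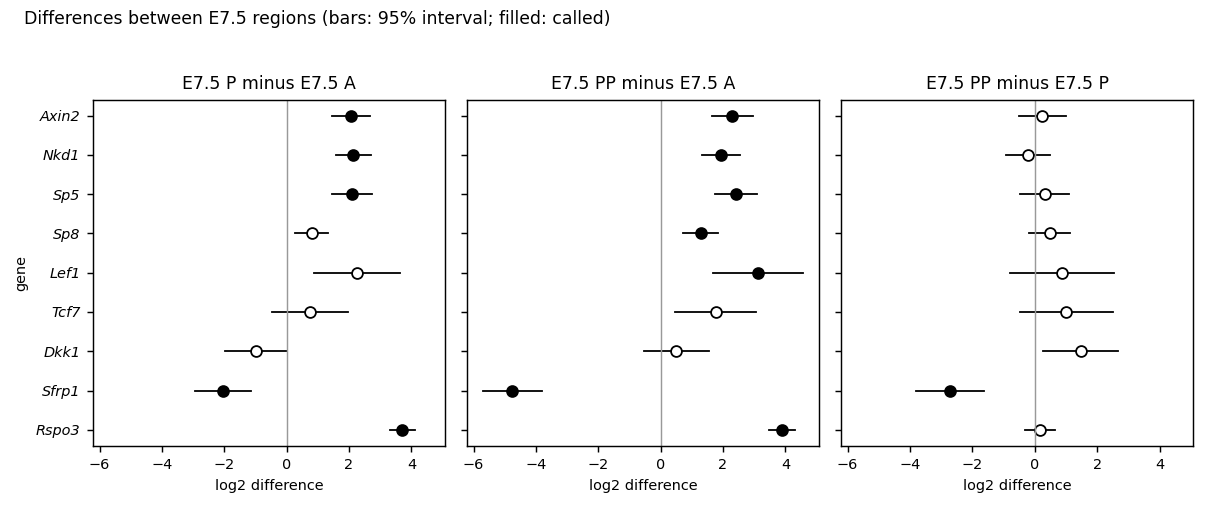
Log2 differences of the 9 tested members between the E7.5 regions, with 95% intervals from the limma model and filled points for calls. Rspo3 lies farthest to the right in P against A (3.71) and in PP against A (3.88), and Sfrp1 farthest to the left (-2.04 and -4.75).

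Dkk1 encodes a secreted protein that blocks the Lrp co-receptors. It was dim throughout and detected on 26 arrays (probe ILMN_2747037). Dkk1 read 7.24, 6.89 and 7.84 in E7.5 A, 6.12 (not detected) and 7.00 in P and 7.44 and 7.33 in PP. A and PP overlapped, and P lay below PP. The difference of 1.48 between PP and P was not called (adjusted p = 0.329). At E8.5 Dkk1 read 5.69 and 5.74 in RN, 5.91, 6.04 and 4.64 (not detected) in NSB and 7.31, 4.85 (not detected) and 5.62 (not detected) in CLE. The streak levels were 6.82 and 6.61 in St1 and 6.84 and 7.18 in St5. St5 and St1 were above RN and NSB on every array, without overlap between St1 and St5. The excess of St5 over RN was 1.30 (adjusted p = 0.210), and in batch 1 alone it was called at the same value (adjusted p = 0.000348).

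Later, Dkk1 read 7.28 and 7.06 in E9.5 CNH and 7.80 and 7.34 in E9.5 P-CNH. It was 6.61 and 7.21 in E10.5 CNH and 6.69 and 6.57 in E10.5 P-CNH. CNH overlapped P-CNH at E10.5, and at E9.5 it lay below. E9.5 CNH exceeded NSB by 1.88 (adjusted p = 0.130), and a call was made without CLE replicate 1 (2.22, adjusted p = 0.0288). In E11.5 CNH the Dkk1 probe read 6.01, 5.55 and 5.49 (none detected), against 7.66 and 6.42 in E11.5 P-CNH. It read 5.59 and 5.20 (none detected) in E12.5 CNH and 6.21 and 4.58 (not detected) in E13.5 CNH. The E11.5 difference of CNH from P-CNH was -1.80 (SE 0.50), at least 1.94-fold, and was not called (adjusted p = 0.308). It was called without E11.5 P-CNH replicate 2 (-2.41), which sets a lone array against 3 undetected ones, so that the size is not measured. Without replicate 1 instead, it was -1.18 without a call, and -0.77 without the arrays under 13000 detected probes (adjusted p = 0.271). Dkk1 had its highest mean in E9.5 P-CNH and its lowest in E13.5 CNH, and all 15 neighbour pairs overlapped. Its fitted level was highest in PP (8.05) and lowest in RN (5.04) and NSB (5.30). The RN arrays, both detected, averaged 5.71, and the fitted level of RN rests on the batch term. That term ties batch 1 to the others through NSB replicate 3, on which Dkk1 was undetected. With no E12.5 CNH array and 1 of 2 E13.5 CNH arrays detected as well, the bottom of the order is not resolved.

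Sfrp1 encodes a secreted protein with a Frizzled-like domain that binds Wnt ligands. It read 12.21, 11.97 and 12.47 in E7.5 A, 10.22 and 10.06 in P and 7.31 and 7.75 in PP (probe ILMN_2604282, detected on 35 arrays). The 3 regions formed 3 separate levels, with A at the top. Sfrp1 fell by 4.75 (SE 0.45) from A to PP, 27.0-fold (adjusted p = 1.77e-07), a call that no left-out array ended. From A to P it fell by 2.04 (SE 0.43), 4.11-fold (adjusted p = 0.00694). Without P replicate 1 that was -2.12 (adjusted p = 0.0536), and without P replicate 2 it was -1.96 (adjusted p = 0.0642). From P to PP, which share no batch, Sfrp1 fell by 2.71 (SE 0.52), 6.56-fold (adjusted p = 0.0105). This call ended without P replicate 1 (-2.64, adjusted p = 0.0649) and without PP replicate 1 (-2.49, adjusted p = 0.172). A second probe of Sfrp1 (ILMN_1231689), with r = 0.91 to the first, was called for PP against A at -4.72 and for PP against P at -3.24, and was not called for P against A at -1.48 (adjusted p = 0.137).

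At E8.5 Sfrp1 read 10.09 and 9.82 in RN, 8.74, 8.58 and 9.70 in NSB and 8.93, 9.56 and 9.47 in CLE. It read 8.75 and 8.37 in St1 and 7.79 and 7.56 in St5. RN held the 2 highest arrays and St5 the 2 lowest, with NSB, CLE and St1 between them. Sfrp1 fell by 2.28 (SE 0.46) from RN to St5, 4.86-fold (adjusted p = 0.00199), and the call survived the loss of any array. It differed from RN by -1.29 in NSB (adjusted p = 1), -1.63 in CLE (adjusted p = 0.671) and -1.40 in St1 (adjusted p = 0.188), none called. All 3 were called when either E13.5 CNH array was left out, at -1.29 (adjusted p = 0.0232), -1.50 (adjusted p = 0.0361) and -1.40 (adjusted p = 0.000809). In batch 1 alone the Sfrp1 difference of St1 from RN was called (adjusted p = 0.000111).

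Sfrp1 then read 9.33 and 9.32 in E9.5 CNH and 9.34 and 9.55 in E9.5 P-CNH. It read 7.81 and 7.83 in E10.5 CNH and 7.70 and 7.88 in E10.5 P-CNH. At E11.5 it read 7.56, 8.38 and 8.41 in CNH and 7.61 and 7.92 in P-CNH. The 2 regions overlapped at E10.5 and E11.5, and at E9.5 the P-CNH arrays lay just above those of CNH. Sfrp1 came to 7.01 and 7.95 in E12.5 CNH and 7.37 and 5.06 (not detected) in E13.5 CNH. On the first probe these 2 groups overlapped, and the difference of -1.27 was not called (adjusted p = 0.0810). The sign of that difference came from E13.5 CNH replicate 2, without which it was 0.14. Without replicate 1, which leaves E13.5 with a lone array on which Sfrp1 was undetected, it was -2.67. The second probe, detected on 1 of the 2 E13.5 arrays, did not overlap. It read between 6.39 and 8.02 in E12.5 CNH and between 4.56 and 6.11 in E13.5 CNH, with fitted levels of 7.47 and 5.59. With that probe in place of the first, the 6 comparisons along the stages gave 4 member calls instead of 3, beside 2.97% of all probes either way.

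By mean level Sfrp1 was highest in E7.5 A and P and lowest in E13.5 and E12.5 CNH. Neighbours overlapped in 12 of 15 pairs, and A was clear of P. In fitted levels RN (10.61) came second for Sfrp1, above P (9.87).

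Sfrp5 encodes a relative of Sfrp1. Its only probe (ILMN_1232779) was not detected on any array, with readings between 4.55 and 6.52 and a smallest detection p-value of 0.0203, so no difference of Sfrp5 was tested.

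Rspo3 encodes a secreted R-spondin, which strengthens the response by protecting Frizzled receptors from removal. It read 7.17, 7.02 and 7.63 in E7.5 A, 10.93 and 10.93 in P and 11.35 and 11.18 in PP (probe ILMN_3162785). A was far below P and PP, and PP lay just above P. Rspo3 rose by 3.71 (SE 0.19) from A to P, 13.1-fold (adjusted p = 1.01e-11), and by 3.88 (SE 0.20) from A to PP, 14.8-fold (adjusted p = 6.23e-12). These are the largest rises among the members detected in A, and no array decided either of them. Lef1 was undetected on every A array, so its rise is a lower bound and is not ranked.

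Within E8.5, Rspo3 read 9.90 and 9.70 in RN, 11.33, 11.10 and 11.31 in NSB and 10.31, 10.94 and 10.64 in CLE. It read 11.43 and 11.44 in St1 and 11.42 and 11.44 in St5. RN was the lowest, CLE came next, and NSB lay just below St1 and St5. From RN, Rspo3 rose by 1.64 (SE 0.21) to St1, 3.12-fold (adjusted p = 1.69e-05), and by 1.63 (SE 0.21) to St5, 3.11-fold (adjusted p = 6.25e-06). To NSB it rose by 1.42 (SE 0.21), 2.67-fold (adjusted p = 0.00172). The NSB call ended without RN replicate 2 (1.32, adjusted p = 0.0817) or NSB replicate 1 (1.30, adjusted p = 0.123). CLE exceeded RN by 0.79 (adjusted p = 0.530) and lay below NSB by 0.63 (adjusted p = 0.306), neither called.

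**Figure D3:**
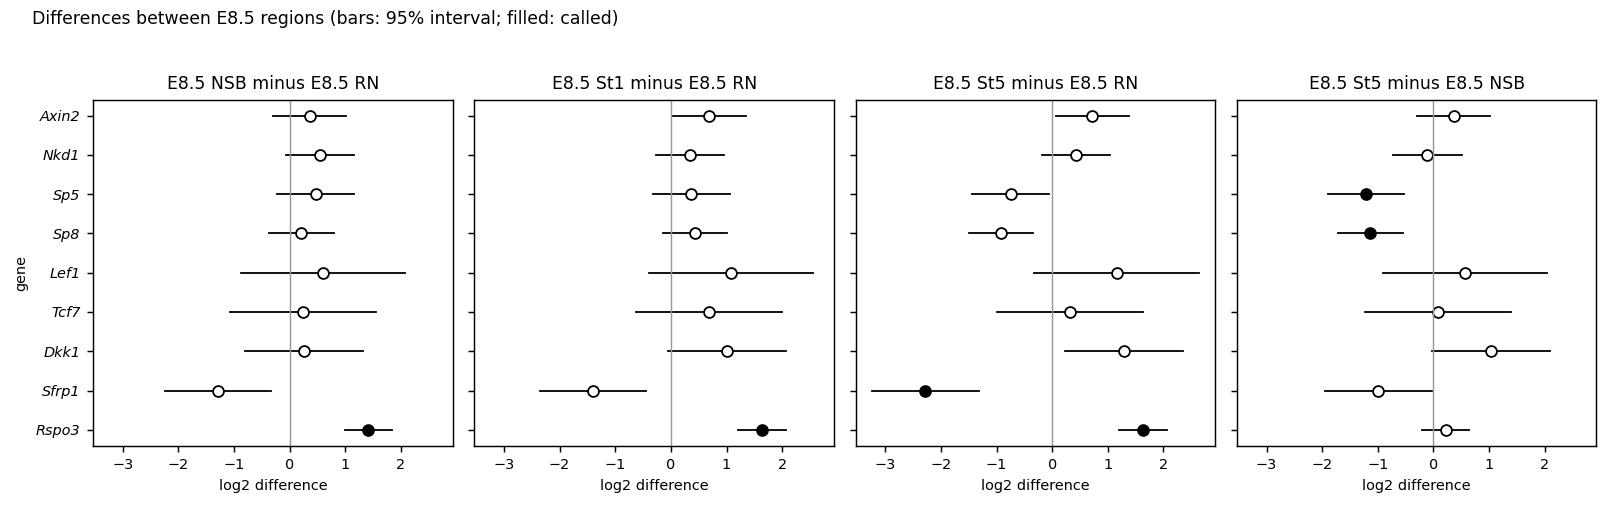
Log2 differences of the 9 tested members for NSB, St1 and St5 against RN and for St5 against NSB, with 95% intervals from the limma model and filled points for calls. Rspo3 is called in the 3 panels against RN (1.42, 1.64 and 1.63), and Sp5 and Sp8 are called lower in St5 than in NSB (-1.21 and -1.14).

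Rspo3 reached 12.27 and 12.27 in E9.5 CNH and 12.60 and 12.41 in E9.5 P-CNH. At E10.5 it read 12.00 and 12.35 in CNH and 12.32 and 12.45 in P-CNH. All 8 of these arrays were above all E8.5 arrays, and CNH and P-CNH overlapped at E10.5. Rspo3 rose by 1.12 (SE 0.27) from NSB to E9.5 CNH, 2.18-fold (adjusted p = 0.0154), and by 0.96 (SE 0.21) from NSB to E10.5 CNH, 1.94-fold (adjusted p = 0.00317). The first of these calls ended without E9.5 CNH replicate 1 (1.12, adjusted p = 0.0678) or 2 (1.13, adjusted p = 0.0629). The other ended without NSB replicate 2 (0.84, adjusted p = 0.0735) or E10.5 CNH replicate 2 (0.79, adjusted p = 0.0961). From E11.5 Rspo3 read 12.41, 12.40 and 12.22 in CNH and 12.31 and 12.20 in P-CNH. It read 11.99 and 12.20 in E12.5 CNH and 11.14 and 11.17 in E13.5 CNH. E12.5 lay just below E11.5 CNH, and both E13.5 arrays lay further below. From E12.5 to E13.5 CNH Rspo3 fell by 0.94 (SE 0.21), 1.92-fold (adjusted p = 0.00810), a call lost without E12.5 CNH replicate 2 (-0.92, adjusted p = 0.122) or E13.5 CNH replicate 2 (-0.86, adjusted p = 0.0723).

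E9.5 P-CNH and E10.5 P-CNH had the highest mean levels of Rspo3, and E7.5 A and RN the lowest. Its arrays overlapped in 10 of 15 neighbour pairs. Among the separated ones, RN was above E7.5 A and CLE above RN. Fitted levels of Rspo3 had the same regions at both ends.

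The ligands were read on the same arrays as a measure of where the signal is made. Wnt3a read 4.94, 5.08 and 5.10 (none detected) in E7.5 A, 12.13 and 12.18 in P and 12.42 and 12.92 in PP. It was 9.79 and 10.17 in RN, 12.69, 12.88 and 12.74 in NSB and 13.25 and 13.39 in St1. RN thus stood between E7.5 A and all other regions, since the next lowest arrays, at 11.24 and 11.39, were those of E13.5 CNH. Across the 16 regions, the fitted level of Wnt3a went with that of Rspo3 at a Pearson r of 0.91 (Spearman 0.70). For Sp5 the value was 0.85 (Spearman 0.66), for Nkd1 0.81 (0.46), for Axin2 0.77 (0.45) and for Sp8 0.69 (0.58). Sfrp1 ran the other way with r = -0.61 (Spearman -0.26), and Tcf7 (0.40), Lef1 (0.36) and Dkk1 (-0.10) were nearer to 0. In all, 15 of the 45 pairs of a member and 1 of 5 ligands had r of at least 0.5, and 8 of 45 without E7.5 A. Leaving out E13.5 CNH, where Tcf7 was detected on 1 of 2 arrays, gave Tcf7 r = 0.55 with Wnt3a (Spearman 0.29) and 0.71 with Wnt5b (0.62). With Wnt3a Lef1 then had 0.35 (-0.04), Dkk1 -0.13 (0.06) and Sfrp1 -0.77 (-0.43). Rspo3, Sp5, Nkd1, Axin2 and Sp8 lay between 0.71 and 0.91 (Spearman 0.35 to 0.66). The values of Lef1 hang on the batch term, which put its fitted level in St5 at 6.66 where the arrays averaged 8.65. With no batch term Lef1 had r = 0.63 with Wnt3a (Spearman 0.39) and 0.70 with Wnt5b (0.58), against 0.36 (0.01) and 0.05 (-0.13) with it. These values describe 16 region means, or 15 where a region was left out, and were not tested.

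Much of this rests on E7.5 A, where Wnt3a was not detected. Without that region, a step added after the values were seen, r with Wnt3a over 15 regions was 0.70 for Rspo3 (Spearman 0.63), 0.36 for Axin2 (0.33), 0.26 for Sp5 (0.59), 0.21 for Nkd1 (0.34), 0.29 for Sp8 (0.49) and -0.21 for Sfrp1 (-0.10). It was 0.44 for Dkk1 (0.31), 0.35 for Tcf7 (0.27) and 0.30 for Lef1 (-0.08), a range that overlaps that of Axin2, Sp5, Nkd1 and Sp8. Rspo3 was also close to Wnt5a, with r = 0.90 over 16 regions (Spearman 0.81) and 0.84 over 15 (0.76). Wnt5a was nearer than Wnt3a to Nkd1, at 0.83 (0.65) over 16 and 0.66 (0.57) over 15, to Sp8, at 0.75 (0.69) and 0.56 (0.63), and to Sfrp1, at -0.76 (-0.70) and -0.60 (-0.64). Tcf7 was nearest to Wnt5b, at 0.63 (0.68) and 0.66 (0.62). Axin2 had r = 0.23 with Wnt5a and 0.76 with Wnt5b, and -0.52 and 0.45 without E7.5 A. Wnt8a, which was undetected on every array from E9.5 on, had r = 0.42 with Axin2 and -0.46 with Rspo3, and 0.61 and -0.80 without E7.5 A. Over the 5 E8.5 regions alone, r with Wnt3a was 0.89 for Axin2, 0.88 for Rspo3 and 0.70 for Dkk1. Tcf7 had 0.65, Lef1 0.62, Nkd1 0.56, Sp5 0.14 (Spearman 0.6), Sp8 0.11 (0.9) and Sfrp1 -0.83 (-0.3). With Wnt5a there, r was -0.86 for Sp8 (Spearman 0), -0.84 for Sp5 (-0.3) and -0.81 for Sfrp1 (-0.9). The rest lay between 0.24 (Lef1) and 0.67 (Axin2).

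**Figure D4:**
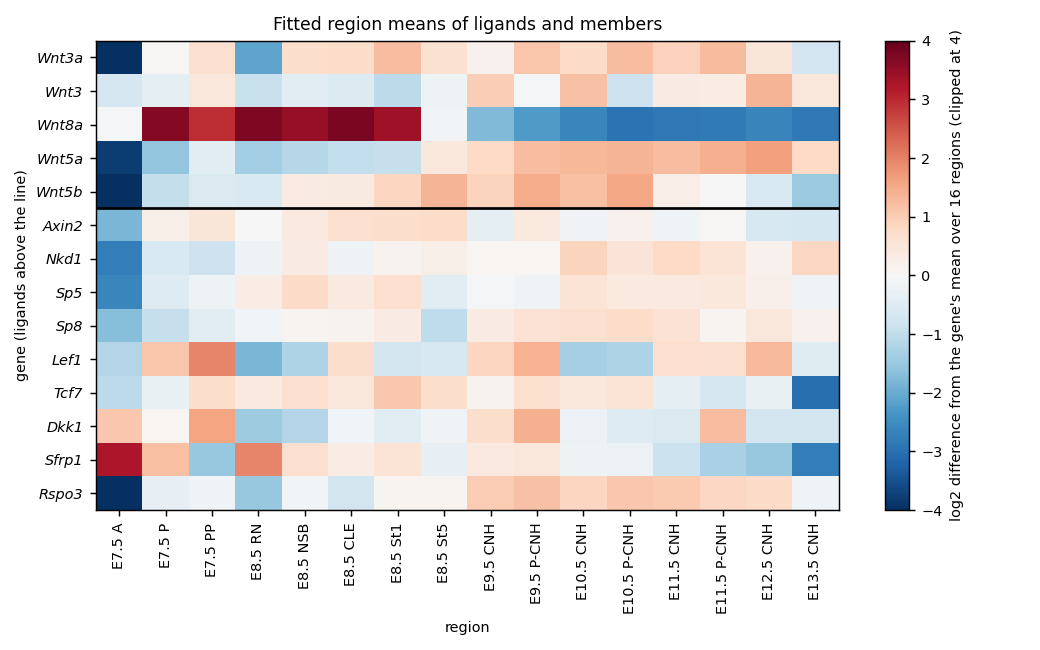
Heat map of the fitted log2 level of 5 Wnt ligands (above the line) and the 9 tested members in each of the 16 regions, minus the mean of the gene over the regions and limited to 4 in either direction. E7.5 A is the region in which Wnt3a, Axin2, Nkd1, Sp5, Sp8 and Rspo3 lie farthest below their own mean, and Sfrp1 farthest above it.

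**Figure D5:**
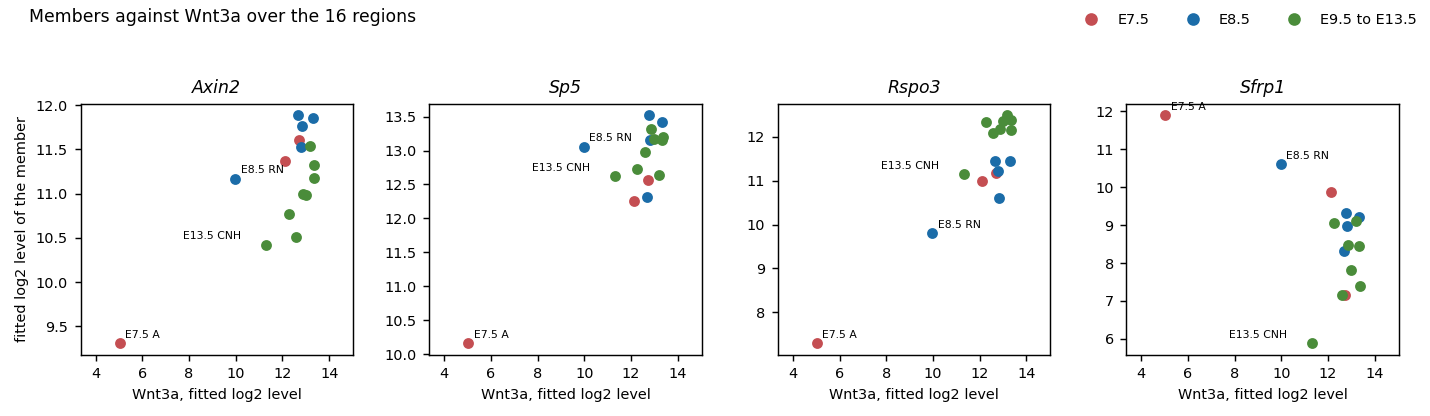
Fitted log2 levels of Axin2, Sp5, Rspo3 and Sfrp1 against that of Wnt3a, with 1 point for each of the 16 regions. E7.5 A stands alone at the left of each panel, and without it r for Axin2 goes from 0.77 to 0.36.

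Among the members, Nkd1 and Sp5 had r = 0.85 across the 16 regions (Spearman 0.57), Sp5 and Sp8 0.82 (0.58) and Nkd1 and Sp8 0.80 (0.60). Rspo3 was with Nkd1 at 0.85 (Spearman 0.55) and with Sp8 at 0.78 (0.78). Axin2 was nearest to Tcf7, at 0.68 (Spearman 0.84). Sfrp1 was opposite to Nkd1, at -0.67 (Spearman -0.52), and to Rspo3, at -0.65 (-0.34). Several of these values also rest in part on E7.5 A. Without it, over 15 regions, Nkd1 had 0.45 with Sp5 (Spearman 0.48), 0.59 with Sp8 (0.51) and 0.52 with Rspo3 (0.45). Sp8 had 0.66 with Sp5 (0.49) and 0.55 with Rspo3 (0.73), Sfrp1 had -0.39 with Nkd1 (-0.42) and -0.35 with Rspo3 (-0.20), and Axin2 with Tcf7 had 0.72 (0.81). Other pairs turned sign or came close to 0 without it. Axin2 went from 0.45 to -0.44 with Nkd1, from 0.50 to -0.26 with Rspo3 and from 0.29 to -0.40 with Sp8. With Sp5, Axin2 went from 0.65 to 0.01 and Rspo3 from 0.74 to 0.09.

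Each member was also set against 11773 probes whose level varied by at least 1 on the log2 scale. For Axin2 the 3 most alike were 2900027G03Rik (r = 0.899), 4930511J11Rik (0.889) and Hoxb2 (0.872). For Nkd1 they were Hoxb7 (0.918), Ext1 (0.914) and Lrrk1 (0.908). Sp5 was most like Etv4 (0.960), Fzd10 (0.919) and LOC100044289 (0.898). Sp8 was most like Zyx (0.933), Skap2 (0.913) and Shf (0.906). Lef1 had Cnot7 (0.913), Grhl3 (0.911) and Camkk2 (0.909), all on fitted levels, which for Lef1 in RN (5.50, arrays averaging 7.49) and the other batch 1 regions depend on the batch term. Tcf7 had Ndufb11 (0.950), EG432649 (0.948) and Patz1 (0.945). Nearest to Dkk1 were LOC100045198 (0.851), 5730543M03Rik (0.830) and Cdc40 (0.819). Sfrp1 went with Accn2 (0.962), Pold3 (0.918) and LOC268934 (0.912). Rspo3 went with Thsd2 (0.980), which is an older name of Rspo3 and not a member by symbol, Evx1 (0.962) and Fgf17 (0.954). Without E7.5 A the r of these pairs stayed at or above 0.726, except for Sp5 with Fzd10 (0.580) and LOC100044289 (0.642).

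Other genes of the pathway were counted in the same comparisons. Of the 13 tested ligands, 7 were higher and 0 lower in P than in A. The largest were Wnt3a (at least 68.5-fold), Wnt8a (3.77), Wnt5b (3.08), Wnt6 (at least 3.76-fold) and Wnt5a (2.21). In PP against A, 5 were higher and 0 lower, with Wnt3a at least 97.7-fold, Wnt5b at 3.45, Wnt5a at 3.36, Wnt8a at 3.04 and Wnt6 at least 5.19-fold. Of 17 receptors, 2 were higher and 2 lower in P than in A, namely Fzd10 (3.53), Ror2 (1.44), Fzd5 (-3.23) and Fzd8 (at least 1.46-fold lower). In PP against A 2 were higher and 4 lower, with Fzd10 at 4.32, Fzd5 at -3.55, Fzd8 at least 1.94-fold lower, Fzd2 at -1.85 and Fzd7 at -1.77. Of 10 other secreted modulators, 2 were higher and 1 lower in P than in A, namely Notum (at least 5.13-fold), Dkk4 (at least 2.62-fold) and Cer1 (-1.83). In PP against A 4 were higher and 2 lower, with Notum at least 6.50-fold and Dkk4 at least 4.39-fold higher, Cer1 at least 7.20-fold lower, Frzb at 2.36 and Dkk3 at 1.24.

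Of 15 other known targets, 10 were higher and 0 lower in P than in A, with Cdx1 at least 49.1-fold, Tbx6 at least 25.9-fold, Cdx2 at 5.93, Evx1 at 4.63 and Dll1 at 3.48. In PP against A 13 were higher and 0 lower, with Cdx1 at least 90.8-fold, Tbx6 at least 40.4-fold, Mixl1 at least 16.7-fold, Cdx2 at 6.33 and Evx1 at 5.59. Of 19 intracellular components, 0 were higher and 1 lower in P than in A, Tle1 (-0.90), and again 0 and 1 in PP against A, Tcf7l2 (-1.37). Between PP and P, 2 targets were higher, Cdx4 (at least 6.21-fold) and Mixl1 (1.98), 1 modulator was lower, Cer1 (at least 2.14-fold), and no ligand, receptor or intracellular gene was called.

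Against RN, Wnt3a was higher by 2.80 in NSB (adjusted p = 2.81e-06), 2.84 in CLE (6.60e-05), 3.34 in St1 (6.10e-09) and 2.70 in St5 (6.82e-08). It was the only ligand of 13 called in NSB and in CLE, with 3 higher and 0 lower in St1 and 4 higher and 1 lower in St5. Wnt8a was the ligand lower in St5 than in RN (-3.85), and it also differed by -3.58 from NSB, -3.87 from CLE and -3.50 from St1. Of the 17 receptors, 0 were higher and 4 lower in St5 than in RN, namely Fzd2 (-2.75), Fzd7 (-1.83), Fzd6 (-1.67) and Ror2 (-1.09). Of the 15 other targets, 4 were higher and 0 lower in NSB, with Mixl1 at 2.10, Evx1 at 2.04, Fgf8 at 1.95 and Tbx6 at 1.62. In St1 the count was again 4 and 0, with Fgf8 at 2.81, Evx1 at 2.66, Mixl1 at 2.54 and Tbx6 at 2.03. In St5 it was 5 and 1, with Mixl1 at 5.02, Mesp1 at 3.55, Evx1 at 2.91, Fgf8 at 2.10 and Cdx4 at 1.76. Of the 19 intracellular components, 0 were higher and 2 lower in St5 than in RN, Porcn (-2.10) and Tcf7l2 (-1.03). Of the 10 modulators, 0 were higher and 1 lower in CLE and 1 higher and 1 lower in St1, where Dkk3 differed by -2.32 and Dkk4 was at least 3.75-fold higher. In St5 against NSB, 0 receptors were higher and 3 lower, and 2 targets were higher and 1 lower, with Mesp1 at 4.01, Mixl1 at 2.92 and Cdx1 at -1.67.

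Between CNH and P-CNH the pathway lists gave a single call, Fzd6 at E10.5 (1.93). In E9.5 CNH against NSB, 5 genes of these lists were lower and 0 higher, namely Wnt8a (at least 30.5-fold), Cdx1 (-5.47), Rspo1 (-1.84), Fzd5 (-1.70) and Dkk4 (at least 1.56-fold). In E10.5 CNH against NSB, 2 ligands were higher and 1 lower, with Wnt5a at 2.45, Wnt3 at least 1.98-fold higher and Wnt8a at least 46.1-fold lower. Among the rest of the lists Nkd2 (2.33), Fgf8 (1.31) and Fzd1 (1.29) were higher there. Lower were Cdx1 (-5.43), Fzd5 (-1.71), Porcn (-1.65), Ror2 (-1.36), Dkk3 (-1.19), Pygo1 (-1.12), Dkk4 (at least 2.35-fold) and Mesp1 (at least 2.22-fold). In NSB against E7.5 P, Fzd10 (1.70), Fzd6 (1.58), Tle4 (1.26) and Cdx4 (at least 15.3-fold) were higher, and Mesp1 (-3.21), Wnt2 (at least 3.08-fold) and Cer1 (at least 1.79-fold) lower. In E13.5 against E12.5 CNH 2 ligands were higher and 1 lower, with Wnt6 at 1.77, Wnt9b at 1.56 and Wnt3a at -1.27 (adjusted p = 0.00371). In the same step 1 target was higher and 4 were lower, with Mesp1 at least 2.75-fold, Dll1 at -2.57, Cdx4 at -1.95, Cdx2 at -1.09 and Ccnd1 at -0.90. Sostdc1 (1.91) and Rspo4 (at least 1.21-fold) were also higher in it, and Fzd7 (-1.41), Nkd2 (-1.15) and Lrp6 (at least 1.79-fold) lower. Of these lists only Cdx1 was called between E11.5 and E12.5 CNH (-1.496), and only Wnt8a between PP and St5 (-3.08).

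Promoters are given for the mouse build GRCm38.p6 with RefSeq start sites, from 250 bases before the start to 50 after it. Positions were found for 8 of the 10 members, and those of Rspo3 and Sfrp1 were not used here. The letters CTTTGAT and CTTTGAA, to which TCF and LEF factors bind, were sought on both strands, and capitals mark the motif. Of 32851 promoters, 1225 (3.73%) held CTTTGAT, 1687 (5.14%) held CTTTGAA and 2842 (8.65%) held either. In 14 windows of the 8 members there were 3 matches. They were CTTTGAT in Sp5, 104 bases before its start, CTTTGAA on the other strand in a second start of Sp8, 51 bases before it, and CTTTGAA in Dkk1, 117 bases before it. A match is a description of the letters and no evidence of binding. The window of Sp5 is chr2:70474673-70474972 (+), that of Axin2 chr11:108920099-108920398 (+) and that of Nkd1 chr8:88527383-88527682 (+), and each spans the start of the first exon.

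Sp5: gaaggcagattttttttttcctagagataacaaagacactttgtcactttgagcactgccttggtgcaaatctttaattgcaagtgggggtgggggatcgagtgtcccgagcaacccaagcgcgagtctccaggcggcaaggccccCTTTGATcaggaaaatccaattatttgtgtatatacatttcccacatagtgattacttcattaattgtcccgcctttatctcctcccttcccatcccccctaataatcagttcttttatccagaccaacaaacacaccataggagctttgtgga

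Axin2: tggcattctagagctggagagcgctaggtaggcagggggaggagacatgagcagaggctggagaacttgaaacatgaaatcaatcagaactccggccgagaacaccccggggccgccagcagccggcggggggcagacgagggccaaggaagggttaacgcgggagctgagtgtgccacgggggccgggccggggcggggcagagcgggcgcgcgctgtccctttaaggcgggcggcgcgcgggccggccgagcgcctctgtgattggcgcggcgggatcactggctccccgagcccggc

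Nkd1: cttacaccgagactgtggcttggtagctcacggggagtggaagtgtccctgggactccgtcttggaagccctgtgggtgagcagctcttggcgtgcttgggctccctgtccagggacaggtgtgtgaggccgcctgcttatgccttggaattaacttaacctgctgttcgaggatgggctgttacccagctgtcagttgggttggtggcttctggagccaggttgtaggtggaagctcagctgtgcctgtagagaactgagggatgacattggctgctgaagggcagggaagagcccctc

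Tissue markers moved in the same comparisons as the members, and the lists given are those with a share of at least 0.5 of their genes called one way. For the step from E12.5 to E13.5 CNH, lists below that share are given as well. Some genes are in a marker list and a pathway list at once. The streak genes T, Evx1, Mixl1 and Fgf8 and the paraxial genes Tbx6 and Dll1 are also among the other known targets. Wnt3a is both a streak gene and a ligand. Streak and paraxial counts are therefore not separate from the counts of targets and ligands. From A to P and from A to PP, where Sfrp1 fell and Axin2, Nkd1, Sp5 and Rspo3 rose, 5 of 5 streak genes were higher. In the same comparisons 3 of 4 and 4 of 4 anterior neural genes were lower, 3 of 5 paraxial genes were higher in both, and in PP also 3 of 4 genes of lateral mesoderm and 4 of 6 of visceral endoderm. The endoderm sum, mostly Ttr in PP, was 2066, 2121 and 10530 in A, 10578 and 5727 in P and 35554 and 17153 in PP, with Afp and Rbp4 undetected on both P arrays. In St5, where Sp5 and Sp8 were lower than in NSB, 4 of 4 genes of lateral mesoderm and allantois were higher than in NSB and in St1, with Tbx4 the brightest. Their sum was 8358 and 10347 in St5, between 323 and 451 in NSB and 533 and 564 in St1. Of the endothelial genes 2 of 3 were higher in both cases, and against NSB 5 of 6 node and notochord, 2 of 3 neural and 2 of 4 gut endoderm genes were lower. From RN to St5, where Sfrp1 fell and Rspo3 rose, 3 of 3 neural genes were lower, with sums of 1770 and 1593 in RN and 320 and 273 in St5. In the same step 5 of 6 node and notochord and 2 of 4 gut endoderm genes were lower, and 4 of 4 genes of lateral mesoderm, 4 of 5 of the streak and 2 of 3 of endothelium higher. From RN to NSB, where Rspo3 rose, 4 of 5 streak genes were higher. From RN to St1, where it also rose, 5 of 6 node and notochord genes and 2 of 3 neural genes were lower and 4 of 5 streak genes higher. From NSB to E9.5 CNH, where Rspo3 rose, 3 of 5 blood genes were higher, with sums of 35434 and 36007 in E9.5 CNH and at most 1701 in NSB, and 3 of 4 gut endoderm genes were lower. The same held from NSB to E10.5 CNH, where Rspo3 also rose and 2 of 3 neural genes were lower. From E12.5 to E13.5 CNH, where Rspo3 and Tcf7 fell, 3 of 3 endothelial genes were higher, and the sum of surface ectoderm genes was 4211 and 4261, mostly Krt14, against 1694 and 1618, mostly Cldn4. Over the same day the streak sum went from 32579 and 32658 to 21888 and 10744, with 1 of 5 streak genes called lower. Of 6 node and notochord genes 1 was lower, Noto, and of 5 paraxial genes 1, Dll1. Of 4 genes of lateral mesoderm 1 was higher, Bmp4, and the sum of that list went from 668 and 523 to 3562 and 1628. Of 5 blood genes 1 was higher, Alas2. Whether the tissue make-up of the pieces accounts for any member difference was not tested. In pooled tissue, fewer cells with a transcript and less of it in each cell cannot be told apart.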

How the data were processed

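RNA from 36 samples of pooled, dissected mouse tissue was hybridised to 36 Illumina arrays (MouseWG-6 v2.0). The authors deposited the mean bead intensity of 45281 probes per array on a linear scale, with background still in it and no normalisation between arrays. The deposited table also holds a detection p-value for each probe and array, taken against the negative-control beads of that array. The region, stage, batch and number of pieces of each array come from the labels of the samples.

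The neqc function of limma (version 3.58.1, under R 4.3.3) turned these into log2 values (normexp background correction with an offset of 16, controls inferred from the detection p-values, quantile normalisation). The lumi package that the authors name was not installed, so neqc stands in for its transformation and normalisation, and a batch term in the model stands in for their batch adjustment. Differences between dim probes are compressed by background, so they may be larger than given. A probe was tested if any array gave it a detection p-value below 0.01, which kept 21712 probes and left out 23569. Little can be said of probes close to background, such as those of Dkk1 and Lef1.

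All 36 arrays entered a single linear model with 16 regions and 3 batches, which left 18 residual degrees of freedom. Tests are limma's moderated tests, two-sided, with Benjamini-Hochberg adjustment over all tested probes within each comparison, and an F-test over the regions. A call needs an adjusted p no larger than 0.05 and a fold no smaller than 1.5. The fitting script was tested on simulated data with known differences. A gene with several probes is given by the one with the highest mean, and other probes where they go another way. Named are all members, the ligands Wnt3a and Wnt8a, up to 5 called genes per pathway list and comparison with the largest difference, and the 3 genes most like each member. Members and lists were chosen with earlier results of these data known. Summed marker levels are sums of linear normalised intensities.

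The alternatives tried were cyclic loess, an offset of 100, leaving out background correction, no batch term, batch means removed first, the BeadChip as a random block, each batch alone, a replicate block, 2 other filters, the probe with the largest range, a fold of at least 2, and each array left out in turn, and for the correlations leaving out E13.5 CNH. Added after the data were seen were leaving out the arrays under 13000 detected probes, a covariate for how many probes an array detects, and for the correlations leaving out E7.5 A. Correlations with the ligands were also computed over the E8.5 regions alone. Promoters come from the RefSeq annotation of GRCm38.p6. Figures were drawn with matplotlib 3.10.9 in Python 3.11.15.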

Additional observations from a re-analysis of the deposited data

How the results depend on the processing

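All 9 tested members varied across regions under most alternatives, and 8 did with no batch term, with batch means removed first, with no filter and without the arrays under 13000 detected probes, with 8 to 9 when an array was left out. The 13 member calls at E7.5 (3.22% of all probes called) lay between 12 and 16 under other settings, with the 16 under cyclic loess (5.04%). They lay between 11 and 14 with an array left out. The 7 calls at E8.5 (2.37% of all probes called) became 11 with no batch term (3.89%), 11 with batch means removed first (3.31%), 23 without the arrays under 13000 detected probes (6.30%) and 12 with detected probes as a covariate (3.08%), the last 2 of these settings having been chosen after seeing the data, and they ran from 4 to 14 with an array left out. The 3 calls between successive stages (2.97%) became 6 with no batch term (4.73%), 6 with BeadChip as random block (4.11%) and 13 without the arrays under 13000 (8.52%), and ran from 1 to 6 with an array left out. The 1 call between NSB and E10.5 CNH (7.14%) became 0 at a fold of at least 2 (6.25%) and 3 without the arrays under 13000 (13.7%), with 0 to 2 when an array was left out. Between E7.5 PP and St5 the count of 0 became 2 without the arrays under 13000 and stayed 0 without any single array. Between CNH and P-CNH it was 0, with 0 to 1 when an array was left out, and for the change of that difference it was always 0. Comparisons inside batch 1 gave 8 calls in the full model (3.22%) and 26 in batch 1 alone (9.93%). Those inside batch 2 gave 7 (3.11%) in the full model, and those inside batch 3 gave 9 (3.65%). In batch 2 alone E9.5 P-CNH, E12.5 CNH and E13.5 CNH have a lone array each. In batch 3 alone the same holds for E7.5 A, NSB and E11.5, E12.5 and E13.5 CNH. A lone array is assumed to vary like the other groups, so no count is given for either batch alone. With the replicate block 9 members varied across regions. The calls were then 13 at E7.5 (3.18%), 8 at E8.5 (2.35%), 4 between stages (3.41%), 1 between NSB and E10.5 CNH (7.36%) and 0 in the other 3 families. Under the replicate block Sp8 in PP against A was not called at 0.99 (adjusted p = 0.0835), Sfrp1 in PP against P was not called at -2.49 (adjusted p = 0.0563), while Tcf7 in PP against A (2.79, adjusted p = 0.0162), Lef1 in P against A (2.45, adjusted p = 0.0403), Sp5 in St5 against St1 (-1.11, adjusted p = 0.0484) and Dkk1 in E9.5 CNH against NSB (2.38, adjusted p = 0.0436) were called, and no other member call changed. The numbers were not taken to pair the arrays, since deviations from group means correlated at a median r of 0.032 between same-numbered arrays (79 of 246 pairs over 0.1) and -0.018 between others, but within a batch it was 0.107 (44 of 86 pairs over 0.1) against 0.003, and in batch 1 the number also marks the BeadChip, so that a partial pairing there was not excluded. Lef1 turned sign with no batch term in CLE against RN (-0.63), CLE against NSB (-0.071), St1 against CLE (1.71), St5 against CLE (1.78), E10.5 against E9.5 CNH (0.33), E11.5 against E10.5 CNH (-0.83) and St5 against PP (0.82). Lef1 also did so with batch means removed first in St1 and St5 against CLE (0.29 and 0.36), and under the random block of BeadChips in St1 against CLE (0.80), St5 against CLE (0.88), E10.5 against E9.5 CNH (0.30) and St5 against PP (0.59). Sfrp1 in E13.5 against E12.5 CNH, on its first probe, turned sign in batch 2 alone (0.36), where each of these regions has a lone array. It also did so without the arrays under 13000 (0.13) and without E13.5 CNH replicate 2 (0.14), which both leave E13.5 CNH with a lone array. With an array left out this difference of Sfrp1 ran from -2.67 to 0.14. The cause was not tested for any of these moves. The 9 comparisons that join batch 1 to the other batches could not be estimated without NSB replicate 3. The number of member and ligand pairs with r of at least 0.5 was 15, and 17 with no batch term, 16 with no background correction, 16 without E13.5 CNH and 8 without E7.5 A, the last chosen after seeing the data. Signal over background was between 2.17 (CLE replicate 1) and 12.2 (E7.5 PP replicate 2), which limits dim probes most on the arrays at the low end.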
